A study of Mus musculus with 12 samples.

Results

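Peaks of N6-methyladenosine (m6A) that the authors annotated to the start codon were examined in limb buds of mouse embryos with a conditional knockout of Mettl14 and of heterozygous controls. The members were all peaks with that annotation in the authors' deposited peak lists, of which there was 1 per genotype. They numbered 4595 of 46758 peaks (9.83%) in the cKO list and 3400 of 41196 peaks (8.25%) in the cHet list. The peaks lay on 4565 and 3373 genes, or 5177 genes in all.

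The assay was m6A-seq on limb bud RNA at embryonic day 12.5, which sequences fragments captured by an antibody against m6A (IP) beside the unselected RNA (input). The conditional knockout (cKO) carried Mettl14 flox/flox, and the heterozygous control (cHet) carried Mettl14 wt/flox, so that both groups had at least 1 floxed allele. Each genotype had 3 input and 3 IP libraries, 12 in all, which the labels call biological replicates without saying whether a replicate pooled embryos. The labels do not name the Cre driver, so the cells that lost Mettl14 cannot be stated.

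METTL14 and METTL3 form the core of the nuclear complex that writes m6A into messenger RNA, with WTAP, VIRMA, ZC3H13, RBM15 and RBM15B among its partners. In mammalian mRNA the mark is concentrated around stop codons and in long internal exons, and a smaller part lies near the 5′ end. Antibodies against m6A also bind m6Am, a modified adenosine at the first transcribed position beside the cap, which is written by PCIF1. Readers such as the YTHDF proteins bind m6A in the cytoplasm and promote decay of the RNA that carries it.

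To show the sequence under peaks that begin near a transcript's 5′ end, 30-base stretches of the sense strand are given from the RefSeq promoter table (build GRCm38.p6), written as DNA. The first set holds GGAC, the core of the m6A consensus, in capitals wherever it occurs. Postn (chr3:54361109-54361138, plus strand) had start codon peaks over this stretch in both lists, Mettl5 (chr2:69885577-69885606, minus strand) is shown from its cKO peak, and Rcn3 (chr7:45092181-45092210, minus strand) and Bhlha9 (chr11:76672480-76672509, plus strand) from their cHet peaks.
Rcn3: ggcggcagcctctGGACggctggtggagga
Postn: cagatctcttcctGGACggagctcagggct
Mettl5: gcactgcggggagGGACcgcgaGGACcagc
Bhlha9: gccatcagtcagtGGACcagcagccttttg
The second set starts at the RefSeq transcription start, with the first transcribed base in capitals, here an A. Col1a2 (chr6:4505618-4505647, plus strand) and Dkk2 (chr3:132085292-132085321, plus strand) are shown from cKO peaks and Cytl1 (chr5:37735519-37735548, plus strand) from its cHet peak.
Col1a2: Attggtggagacgtttttggaggcaccctc
Dkk2: Aagagagcactggccctccgcgcagcgcat
Cytl1: Agctgacccagcagtaggcaccaggcacca

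Of the start codon peaks, 1095 in the cKO list and 692 in the cHet list began within 25 bases of a RefSeq start and reached base 50. The first base was A in 31.3% of these in the cKO list and 34.2% in the cHet list, against 27.9% of the 12000 starts of genes tested for expression and 34.4% of all 32851 starts in the table. GGAC occurred on the sense strand of the first 50 bases in 19.3% of these peaks in the cKO list and 18.4% in the cHet list, against 20.2% of starts of tested genes. Its reverse complement, searched as a second strand, occurred in 17.5% and 17.2%, against 20.8%. The longer form GGACT, which overlaps GGAC, was found in 4.66% and 4.48%, against 5.11%. ATG occurred in 35.5% and 36.4%, against 31.5%, so most of these windows held no ATG. The shares of GGAC were thus close to those of other starts, and a match describes letters only.

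The position of the peaks was set against the annotation. The peak's 5′ edge lay 0 to 25 bases downstream of the gene's 5′ end in 1708 cKO peaks (37.2%) and 1116 cHet peaks (32.8%). It lay exactly at that end in 1137 cKO peaks (24.7%) and 716 cHet peaks (21.1%). The share within 25 bases was 28.3% and 28.1% for peaks annotated 5′ UTR, 5.43% and 4.05% for stop codon peaks, and 0.714% and 0.738% for exonic peaks. The median distance from the gene's 5′ end was 89 bases in the cKO list and 125 bases in the cHet list. A further 22.5% of cKO and 25.5% of cHet start codon peaks began more than 1000 bases downstream. Peak spans are genomic and include introns, with a median of 4769 bases in the cKO list and 4188.5 bases in the cHet list. The start codon itself was therefore not resolved within a peak, and the annotation is the authors'.

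**Figure D1:**
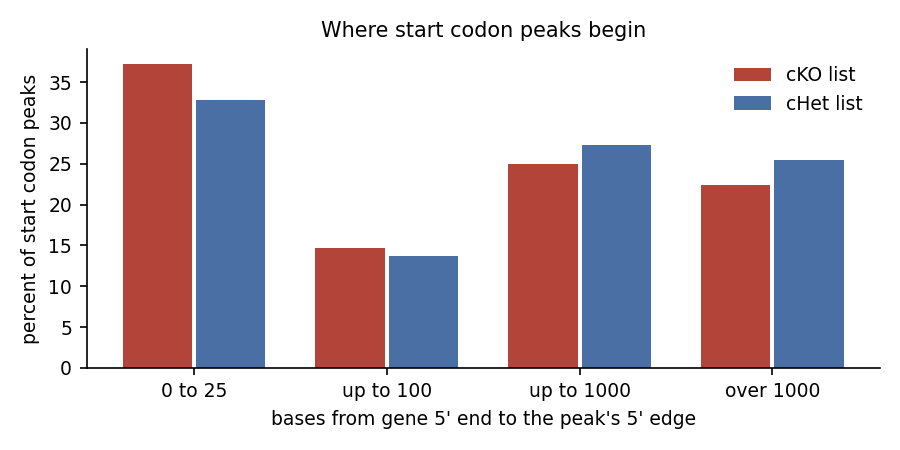
Percent of start codon peaks in the cKO list (red) and the cHet list (blue) by the number of bases between the gene's 5′ end and the peak's 5′ edge; the peaks upstream of the 5′ end (under 1% of each list) are left out. The first class, 0 to 25 bases, holds 37.2% of cKO and 32.8% of cHet peaks.

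The tissue label was checked in the input libraries. Of 15 markers of limb bud mesenchyme, 14 had a mean of at least 1 FPKM, and their summed level was 686.8 to 815.9 FPKM in cKO and 519.5 to 533.6 FPKM in cHet. Markers of limb ectoderm, cartilage, muscle, endothelium and blood were also present. The FPKM of all genes summed to 237288 to 255907 in cKO and 261691 to 275299 in cHet, which did not overlap. Read depth is not given by FPKM values and is unknown here.

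Mettl14, the targeted gene, was at 2.67, 3.07 and 2.63 FPKM in cKO input and 5.08, 4.54 and 4.39 FPKM in cHet input, without overlap. It fell by 0.58 in log2 terms (limma adjusted p = 0.00289). In bulk tissue, fewer cells of a type and less RNA per cell cannot be told apart. Mettl14 had a start codon peak in the cKO list (log2 enrichment 1.71) and none with that annotation in the cHet list. That cKO peak overlapped a cHet peak annotated 5′ UTR, at 1.66.

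The number and strength of start codon peaks were then compared between the lists. The cKO list held more start codon peaks than the cHet list, at lower enrichment. The authors' log2 enrichment of IP over input had a median of 1.68 in the cKO list (quartiles 1.33 and 2.15) and 1.92 in the cHet list (quartiles 1.49 and 2.60). Stop codon peaks were fewer in the cKO list, 7106 against 7793 in the cHet list, with medians of 2.04 in cKO and 2.66 in cHet. The 5′ UTR peaks numbered 2287 in the cKO list and 2043 in the cHet list. Of the 13575 genes tested for expression, 31.5% had a start codon peak in the cKO list and 22.9% in the cHet list. With 1 list per genotype these counts have no replicate error, and differences in how each list was called and scaled cannot be told apart from the genotype.

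Most start codon peaks of the cHet list were also in the cKO list. Peaks in the 2 lists that shared at least 1 base on the same strand were counted as overlapping. A start codon peak of the other list was overlapped by 2781 cKO peaks (60.5%) and by 2781 cHet peaks (81.8%). A further 919 cKO peaks (20%) and 431 cHet peaks (12.7%) overlapped only peaks with another annotation. Among those, 370 of the cKO and 182 of the cHet peaks met an exonic peak, 310 and 151 a 5′ UTR peak, and 251 and 127 a stop codon peak. No peak of any annotation lay opposite 895 cKO peaks (19.5%) and 188 cHet peaks (5.53%). The peaks without a counterpart were weak, with a median log2 enrichment of 1.24 in the cKO list and 1.61 in the cHet list. Peaks that overlapped a start codon peak had medians of 1.88 in the cKO list and 1.94 in the cHet list. The share with no counterpart was not computed for all peaks or other annotations. It therefore cannot be called particular to start codon peaks. Matched 1 to 1 within an annotation, 4595 cKO and 3400 cHet start codon peaks gave 2772 overlapping pairs. The 7106 and 7793 stop codon peaks gave 6276, and the 2287 and 2043 5′ UTR peaks gave 1234.

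**Figure D2:**
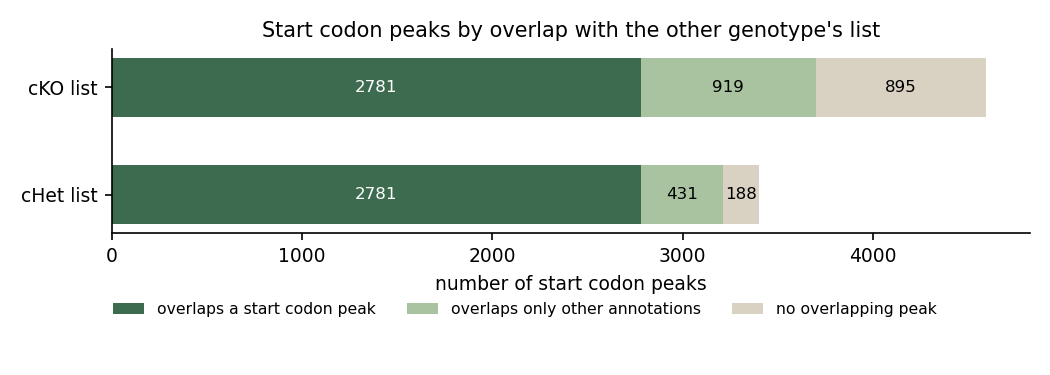
Number of start codon peaks in the cKO list (upper bar) and the cHet list (lower bar), split by what they overlapped in the other genotype's list. Peaks with no counterpart number 895 in the cKO list and 188 in the cHet list. The same split was not made for other annotations.

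By gene, 2761 genes had a start codon peak in both lists, 60.5% of the cKO genes and 81.9% of the cHet genes. There were 1804 genes in the cKO list only and 612 in the cHet list only. More than 1 start codon peak lay on 30 genes of the cKO list and 27 of the cHet list. Most of these genes had peaks elsewhere too. A stop codon peak was listed for 47.8% of cKO and 52.7% of cHet start codon genes, against 43.5% and 47.2% of tested genes. A 3′ UTR peak was listed for 73.1% and 65.8%, against 61.2% and 55.1%. An exonic peak was listed for 36.9% and 31.8%, against 33.1% and 27.7%. For 5′ UTR peaks the order was reversed, with 9.55% and 10.5% against 13.5% and 12.2%. The start codon genes in these shares include genes that were not tested for expression. The genes with start codon peaks alone numbered 107 in the cKO list (2.34%) and 135 in the cHet list (4%).

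The strongest start codon peaks of the cKO list, among genes averaging 1 FPKM or more, were on Col15a1 (log2 enrichment 4.59 in cKO, 3.55 in cHet), Morf4l1 (4.49 and 3.88), Rai14 (4.44 and 3.39) and Anks1 (4.33 and 2.74). Col15a1 encodes a basement membrane collagen, and Morf4l1 a subunit of histone acetyltransferase complexes. Next stood Lsp1 at 4.30 and 3.97, Rps6ka5 at 4.29 and 3.07, and Fbxw4 at 4.10 in cKO and 3.79 in cHet. Tfap2c, an AP-2 transcription factor gene, had a cKO value of 4.25 and no cHet peak at that place. All of these cKO values that had a cHet counterpart were above it, as the choice by cKO level favours. Input was low for Tfap2c (1.10 to 1.26 FPKM in cKO) and Rps6ka5 (1.38 to 1.69 FPKM in cKO). Their enrichment is thus a ratio to a level near the filter of 1 FPKM.

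The strongest of the cHet list were on Osbpl10 (6.78, with no cKO peak there), Gphn (1.44 in cKO, 4.50 in cHet), Capns1 (1.81 and 4.35) and Ntm (3.73 and 4.32). The cHet peak of Gphn also overlapped a cKO peak annotated 5′ UTR, at 4.53. Osbpl10 encodes an oxysterol-binding protein of the lipid transfer family, and Gphn encodes gephyrin, a scaffold of inhibitory synapses. Bhlha9 (4.28), a transcription factor gene of the limb ridge, and Rgmb (4.22), a BMP co-receptor gene, had cHet start codon peaks that met only a stop codon peak and an exonic peak in the cKO list, at 4.54 and 2.92. Grk5 stood at 3.34 in cKO and 4.12 in cHet, and Zc3h18 at 3.59 and 4.11. Input was low for Osbpl10 (1.18 to 1.54 FPKM in cHet) and Bhlha9 (0.69 to 0.86 FPKM in cHet). The enrichment of both is thus a ratio to a level near the filter of 1 FPKM.

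Enrichment was next compared within pairs, each made of 1 start codon peak in each list that overlapped. Over 2772 pairs the median difference, cKO minus cHet, was 0.01 on the log2 scale (quartiles -0.42 and 0.28, range -3.06 to 2.06). The cKO value was the higher in 1420 pairs (51.2%). The differences were skewed to one side, since 291 pairs (10.5%) were lower in cKO by at least 1 on the log2 scale and 39 (1.41%) were higher by as much. Over 26806 pairs of 5 annotations (start codon, stop codon, 3′ UTR, 5′ UTR and exonic) those shares were 13.8% and 0.94%. Stop codon pairs, 6276 in number, had a median difference of -0.54, with 24.5% higher in cKO and 26.5% lower by at least 1. The median difference was -0.05 for 3′ UTR pairs, -0.03 for 5′ UTR pairs and -0.05 for exonic pairs. Of these, 9.18%, 6.81% and 12.1% were lower in cKO by at least 1, and 0.906%, 2.59% and 0.826% were higher by as much. The start codon share of 10.5% lower thus lay among those of the annotations other than the stop codon. The sources used here do not give the scaling of IP to input in each list, so a difference near 0 is relative to that scaling.

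**Figure D3:**
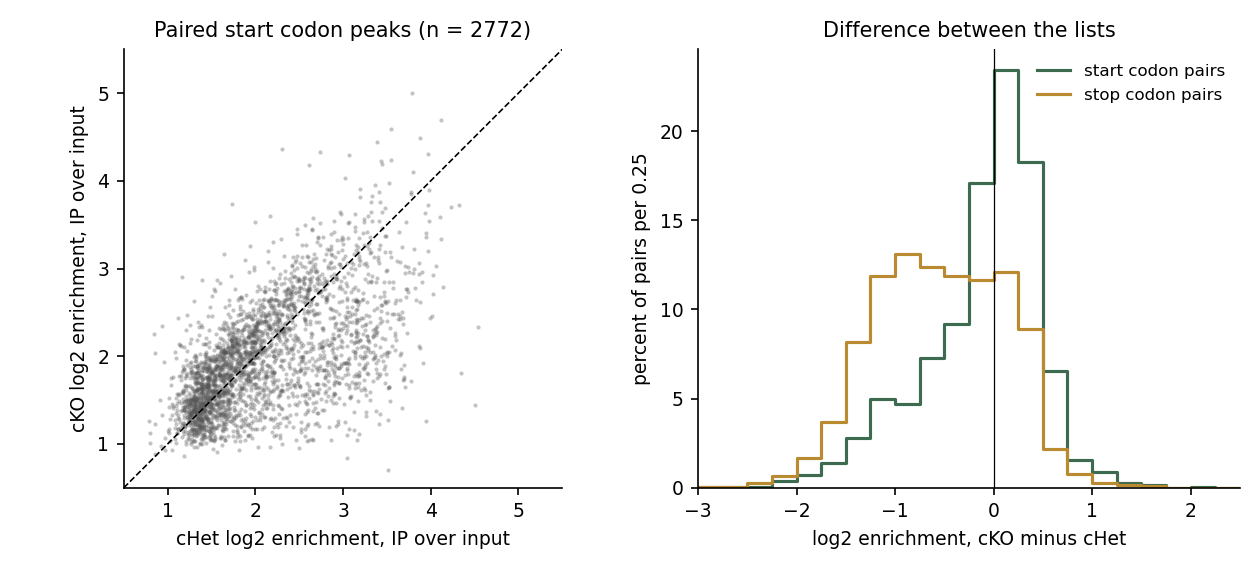
Left, log2 enrichment of 2772 paired start codon peaks in cKO (vertical axis) against cHet (horizontal axis), with the line of equal values dashed. Right, percent of start codon pairs (green) and stop codon pairs (ochre) by the difference, cKO minus cHet. Start codon pairs gather just above 0 with a tail to the left, and stop codon pairs are spread further to the left.

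The comparison of start and stop codon was repeated within genes, where both pairs come from the same libraries. In 1165 genes with a pair at each place, the start codon median was 1.92 in cKO and 1.97 in cHet, with a median difference of 0.02. The stop codon median in the same genes was 1.98 in cKO and 2.54 in cHet, with a median difference of -0.47. The start codon difference lay above the stop codon difference in 825 genes (70.8%). A difference of at least 1 lower in cKO was seen at the start codon in 110 genes and at the stop codon in 255. Across these genes the 2 differences had a Spearman correlation of 0.27, a description over 1165 genes that share the same libraries.

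The stop codon peaks were stronger in cHet, so both kinds were also set side by side at matched cHet enrichment. Below a cHet log2 enrichment of 1.5 the median difference was 0.15 at start codons (680 pairs) and 0.08 at stop codons (402 pairs). Between 1.5 and 2 it was 0.10 at start codons (812 pairs) and -0.03 at stop codons (868 pairs), and between 2 and 2.5 it was 0.01 (512 pairs) and -0.30 (1220 pairs). Between 2.5 and 3 it was -0.45 at start codons (381 pairs) and -0.66 at stop codons (1454 pairs). At 3 and over it was -0.93 at start codons (387 pairs) and -0.98 at stop codons (2332 pairs). The strong start codon peaks of cHet were thus lower in cKO by nearly as much as stop codon peaks of the same strength, and the middle range held the wider gap between the kinds. Grouped by their cKO enrichment instead, the start codon pairs ran the other way, with a median difference of -0.19 below 1.5 and 0.32 at 3 and over. Cutting the same pairs by either list's value favours that list in the top class.

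Pairs that began at the gene's 5′ end differed from the rest by little. The median difference was 0.06 for 967 pairs within 25 bases of it, 0.00 for 394 pairs further in and up to 100 bases, -0.01 for 712 pairs beyond that and up to 1000 bases and -0.06 for 680 pairs further downstream. Among the pairs that began at a RefSeq start, the median difference was 0.07 for 131 with GGAC in the first 50 bases and 0.05 for 552 without it. It was 0.06 for 220 pairs whose transcript began with A and 0.05 for 463 that began with another base. None of these splits came near the width of the distribution, whose quartiles were -0.42 and 0.28.

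The pairs with the lowest differences were on Gphn (-3.06), Zfp956 (0.70 in cKO, 3.52 in cHet, difference -2.82), Zbtb24 (1.26 and 3.94, -2.68), Capns1 (-2.54) and Pnma1 (1.41 and 3.67, -2.27). These values are for peaks of the same annotation, and the cHet peaks of Gphn, Zfp956 and Zbtb24 also overlapped stronger cKO peaks of another annotation, a 5′ UTR peak at 4.53, a non-coding exonic peak at 2.89 and an exonic peak at 2.53. Of the 291 pairs lower in cKO by at least 1, 59 (20.3%) had such a stronger cKO peak, against 94 of all 2772 pairs (3.39%). Zbtb24 encodes a zinc finger protein needed for DNA methylation at repeats, and Capns1 the small regulatory subunit of calpain proteases. In input RNA, Zbtb24 was at 5.31, 5.20 and 5.17 FPKM in cKO and 4.01, 3.64 and 3.35 FPKM in cHet, a rise of 0.42 on the log2 scale (limma adjusted p = 0.00534). Gphn fell by 0.37 (adjusted p = 0.00862) and Capns1 by 0.37 (adjusted p = 0.00526), so these genes did not share a direction in input. The Capns1 call was lost under quantile normalization (adjusted p = 0.0525). Zfp956 was at 5.66, 4.79 and 5.27 FPKM in cKO and 5.38, 5.03 and 5.45 FPKM in cHet, and overlapped. Pnma1 was at 0.06, 0.15 and 0 FPKM in cKO and 0.17, 0.09 and 0 FPKM in cHet and was not tested. Its enrichment in each list is thus a ratio to a level far below the filter of 1 FPKM. The peak boundaries differed for several of these pairs: the Zfp956 peak of cKO lay inside the longer cHet peak.

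The pairs with the highest differences were on Glipr1 (4.36 in cKO, 2.30 in cHet, difference 2.06), Tbc1d5 (3.74 and 1.73, 2.01), Sh3tc1 (2.91 and 1.16, 1.75), Anks1 (1.59) and Foxb2 (4.18 and 2.61, 1.57). The cKO peak of Tbc1d5 also overlapped a cHet peak annotated 5′ UTR, at 3.20. Glipr1, Sh3tc1 and Foxb2 had means under 1 FPKM and were not tested. Anks1, which encodes an ankyrin repeat adaptor of receptor signalling, was at 5.21, 4.95 and 4.92 FPKM in cKO and 2.91, 3.19 and 3.55 FPKM in cHet and rose by 0.52 (adjusted p = 0.00335). Tbc1d5 rose by 0.21 with a weak call (adjusted p = 0.0462), which 9 of 13 alternative settings lost.

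Some start codon peaks had no counterpart at all. In the cKO list the strongest after Tfap2c were on Cttnbp2 (3.65), Dennd1a (3.46), Rhbdl3 (3.32) and Frem2 (3.29), which encodes a matrix protein of the epidermal basement membrane. Cttnbp2 was at 4.67, 4.17 and 4.98 FPKM in cKO and 2.08, 2.07 and 2.25 FPKM in cHet, a rise of 0.84 on the log2 scale (adjusted p = 9.80e-04). In the cHet list the strongest after Osbpl10 were on Corin (3.71), Dpf2 (3.28), Zic2 (3.07) and Evx2 (3.02). Zic2, a zinc finger transcription factor gene, was at 8.08, 13.9 and 13.0 FPKM in cKO and 4.57, 3.74 and 3.92 FPKM in cHet, so that every cKO library lay above every cHet library. It rose by 1.29 (adjusted p = 0.00346). Corin fell by 0.73 (adjusted p = 0.00554), so genes with a peak in the cHet list alone lay in both directions. Corin input was low, at 0.88, 0.47 and 0.76 FPKM in cKO and 1.59, 2.13 and 1.75 FPKM in cHet. The cKO list thus lacks its peak at a level under 1 FPKM.

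The input RNA of all start codon peak genes was compared next. Of the 5177 genes, 5170 were in the expression table, 371 of them had a mean below 1 FPKM, and 4799 were tested by limma on log2(FPKM + 1). Of these, 993 were higher in cKO (20.7%), 846 were lower (17.6%) and 2960 did not pass at an adjusted p under 0.05. Over all 13575 tested genes, 36.2% were called, 18.7% as higher and 17.5% as lower, so the shares of the start codon genes lay near the background. Their median log2 change was 0.01, against -0.00 over all tested genes. Their median level was 8.28 FPKM, against 6.85 FPKM over all tested genes. When the libraries were rescaled to sum to the same total (TPM), 1539 were higher and 458 lower, so that 77.1% of calls were higher where the deposited FPKM gave 54.0%. Over all genes that share was 73.7% against 51.6%, and the rescaling moved the median of all genes to 0.12 and that of start codon genes to 0.14. Without cHet replicate 2 there were 627 higher and 443 lower, and without cKO replicate 2 there were 661 higher and 495 lower.

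Of genes with a start codon peak in both lists, 489 of 2590 were higher (18.9%) and 449 lower (17.3%). Of those in the cKO list only, 367 of 1685 were higher (21.8%) and 298 lower (17.7%). Of those in the cHet list only, 137 of 524 were higher (26.1%) and 99 lower (18.9%). The share that was higher was greatest where the peak was listed in cHet alone, and the difference between these sets was not tested.

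Among genes whose start codon enrichment was lower in cKO by at least 0.5, the share with higher input RNA was above that of all tested genes. This is given as counts with no test between the classes. Of 263 tested genes with a difference of at least 1 lower, 127 were higher in input (48.3%) and 17 lower (6.46%), with a median log2 change of 0.26. This class comes from the 291 pairs above, of which 59 (20.3%) also overlapped a stronger cKO peak of another annotation. Of 312 genes with a difference of 0.5 to 1 lower, 98 were higher (31.4%) and 27 lower (8.65%). Of 1105 genes with a difference of 0 to 0.5 higher, 131 were higher in input (11.9%) and 242 lower (21.9%). In the 263 genes, the median deviation from the cHet mean was 0.23, 0.27 and 0.32 in the cKO libraries, against -0.00, -0.01 and 0.01 in the cHet ones. The cHet values lie near 0 because deviations were taken from the cHet mean. Each cKO library was shifted the same way. Those libraries also enter the enrichment by which the genes were chosen, so this is a description and no separate support. The count of 127 higher and 17 lower became 172 and 10 with TPM, 89 and 9 without cHet replicate 2, 95 and 10 without cKO replicate 2 and 94 and 10 without cKO replicate 3.

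**Figure D4:**
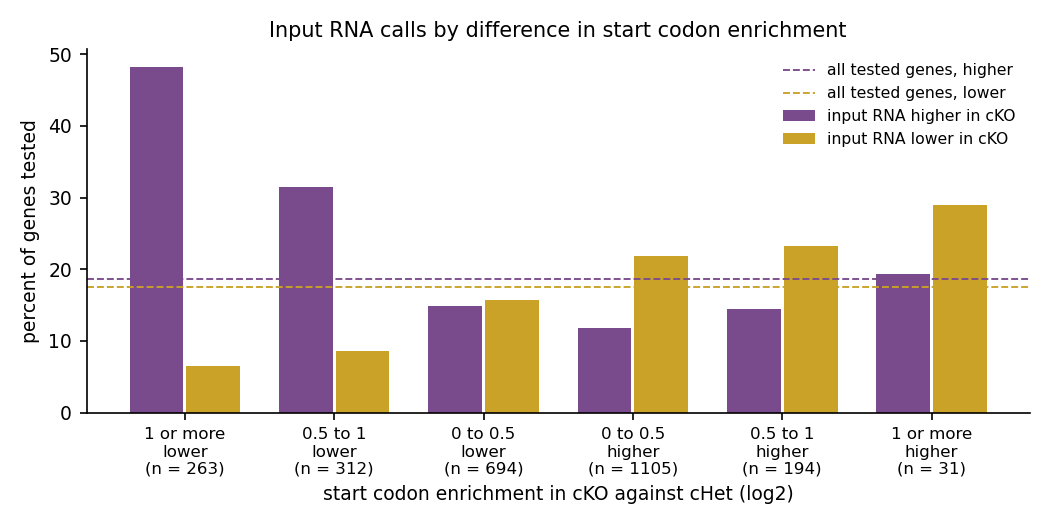
Percent of tested genes called higher (purple) or lower (ochre) in cKO input RNA, by the difference in start codon enrichment, cKO minus cHet, from most negative on the left. Dashed lines give the shares over all tested genes, 18.7% and 17.5%. The leftmost class has 48.3% higher and 6.46% lower.

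The same was seen from the other side. Pairs on genes called higher in input (493 pairs) had a median enrichment difference of -0.36, with 25.8% lower by at least 1. Pairs on genes with no call (1659) had a median of 0.03, and pairs on genes called lower (449) had 0.14, with 3.79% lower by at least 1. Across 2601 pairs the Spearman correlation of the enrichment difference with the input change was -0.28, and that of the cHet enrichment alone with the input change was 0.21. Input reads enter both the input level and the denominator of the enrichment, so the measures share libraries, and how much of the relation this sharing gives was not tested. Stop codon pairs held it too, with 750 of 1495 genes (50.2%) higher and 75 (5.02%) lower where the difference was at least 1 lower, beside 48.3% and 6.46% at the start codon.

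Genes on lists of known function were read from the same fit. Over all 13575 tested genes, 35.4% had a start codon peak in either list, 18.7% were called higher and 17.5% lower, and each list's counts are read beside these shares. Of 12 tested m6A writer genes, a list that also counts Pcif1, 9 had a start codon peak, of which 5 rose and 3 fell. The 3 were Mettl14, Mettl3 and Mettl5. Mettl14 is the targeted gene itself, so its fall is no separate reading of the list. Mettl5 fell by 0.30 (limma adjusted p = 0.0345), a call lost under 7 of 13 alternatives. Rbm15, whose protein guides the complex to RNA, was at 9.36, 10.6 and 11.9 FPKM in cKO and 4.07, 3.92 and 3.02 FPKM in cHet. Every cKO library was above every cHet library, and the rise was 1.32 on the log2 scale (SE 0.118, adjusted p = 9.36e-04). Its start codon peak stood at 1.74 in cKO and 3.69 in cHet, where the lists also held an exonic cKO peak of 2.19 and a 5′ UTR cHet peak of 3.88. Zc3h13, a scaffold subunit, had a cKO start codon peak of 3.12 that met a stop codon peak of 3.24 in the cHet list, and rose by 0.41 in input (adjusted p = 0.00322). Mettl3, the catalytic subunit, had a cKO peak of 1.73 with no peak of the cHet list there. It was at 5.84, 5.86 and 5.36 FPKM in cKO and 6.77, 6.61 and 7.26 FPKM in cHet, and fell by 0.24 (adjusted p = 0.0275). That call was lost under 7 of 14 alternatives, where the adjusted p ran from 0.0267 to 0.255. Pcif1, the m6Am writer gene, had peaks of 1.5 in cKO and 1.84 in cHet and did not pass in input (adjusted p = 0.0636). Of 13 readers and erasers, 4 had a start codon peak (Ythdf3, Igf2bp3, Hnrnpa2b1 and Fmr1), and none passed. Over the alternatives, 4 to 6 of the writer genes were called higher and 1 to 3 lower. A single one was lower without cHet replicate 2, without cKO replicate 1 or 2, with TPM, with a mean of at least 5 FPKM and with the replicate block.

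Of 36 tested limb patterning genes, 19 had a start codon peak, with 8 higher and 1 lower in cKO input and a median log2 change of 0.22. Msx2, a homeobox gene downstream of BMP signalling, was at 25.5, 24.8 and 30.6 FPKM in cKO and 10.1, 10.2 and 11.2 FPKM in cHet. Its mean FPKM rose 2.57-fold, and the change on the log2(FPKM + 1) scale of the limma fit was 1.28 (adjusted p = 5.93e-04). It had a cKO start codon peak of 1.57 with none in the cHet list there, while its stop codon peak stood at 2.12 in cKO and 3.70 in cHet. Hoxd9 and Hoxd10, homeobox genes of the limb axis, had start codon peaks of 1.30 and 1.65 in cKO and 2.36 and 3.53 in cHet. Hoxd9 rose by 0.42 in input (adjusted p = 0.00884). Hoxd10 rose by 0.22 (adjusted p = 0.0402), a call lost without cHet replicate 2 or 3 and without cKO replicate 2 or 3, with an adjusted p of up to 0.147 over the alternatives. Tbx5, the T-box gene of forelimb identity, had a cKO peak of 1.02 with no cHet peak there and was at 55.1, 57.2 and 55.7 FPKM in cKO and 36.4, 40.3 and 42.4 FPKM in cHet. It rose by 0.49 (adjusted p = 0.00322). Hoxd12 fell by 0.43 (adjusted p = 0.0132), a call lost without cHet replicate 2, with TPM and under quantile normalization. Over the alternatives, 6 to 10 of the 19 were called higher. Of 15 mesenchyme markers, 10 were called higher and none lower, but 14 of the 15, including all 10, also stand on the limb patterning list, so they are no separate reading of it.

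Of 36 tested Wnt pathway genes, 18 had a start codon peak, with 10 higher and 3 lower and a median of 0.29. Axin2, a feedback inhibitor and target of Wnt signalling, had a start codon peak of 1.64 in cKO and 3.52 in cHet. Its input level was 20.3, 21.7 and 24.2 FPKM in cKO and 11.4, 11.5 and 14.7 FPKM in cHet, and it rose by 0.78 on the log2 scale (adjusted p = 0.00346). Bcl9l, a beta-catenin cofactor gene, had peaks of 1.65 in cKO and 2.51 in cHet and rose by 1.55 (adjusted p = 0.00167), with 22.9, 24.8 and 25.5 FPKM in cKO and 5.80, 7.45 and 10.2 FPKM in cHet. The co-receptor gene Lrp6 had peaks of 1.71 in cKO and 2.83 in cHet and rose by 0.45. Dkk2, which encodes a secreted Wnt antagonist, went against these. It was at 12.5, 9.67 and 11.2 FPKM in cKO and 24.4, 24.5 and 25.2 FPKM in cHet. The fall was 1.09 on the log2 scale (limma adjusted p = 7.69e-04). Its cKO start codon peak of 2.97 met a stop codon peak of 3.08 in the cHet list.

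Of 33 tested genes of the BMP, GDF and RUNX list, 15 had a start codon peak, with 3 higher and 3 lower and a median of 0.09. Among ligands, Bmp5 had peaks of 1.69 in cKO and 2.96 in cHet, was at 4.04, 3.76 and 4.35 FPKM in cKO and 7.90, 7.42 and 6.29 FPKM in cHet, and fell by 0.70 (adjusted p = 0.00256). Gdf5, the ligand of joint and cartilage condensations named in the study's title, had a cKO start codon peak of 1.67 that met only a stop codon peak of 4.05 in the cHet list, and its stop codon pair stood at 2.76 in cKO. Gdf5 fell by 0.32 in input (adjusted p = 0.0363), a call that 8 of 14 alternatives lost. Among signal transducers, Smad1 had peaks of 1.97 in cKO and 3.24 in cHet and rose by 0.36 (adjusted p = 0.00603). Smad7, an inhibitory Smad gene, had peaks of 2.01 in cKO and 2.54 in cHet. It was at 9.25, 11.2 and 11.2 FPKM in cKO and 4.19, 3.96 and 4.09 FPKM in cHet, a 2.58-fold rise in mean FPKM. On the log2(FPKM + 1) scale of the limma fit it rose by 1.18 (adjusted p = 5.93e-04). With TPM the counts in the list were 8 higher and 2 lower.

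Of 34 tested histone methylation enzyme genes, 17 had a start codon peak, of which 11 were higher in cKO input and none lower, beside 18.7% and 17.5% of all tested genes. The other 6 did not pass, and the median was 0.41. Setdb1, a histone H3 lysine methyltransferase gene of heterochromatin, was at 36.1, 37.7 and 39.1 FPKM in cKO and 16.8, 16.7 and 16.4 FPKM in cHet. It rose by 1.13 (SE 0.0536, adjusted p = 3.10e-04), and its start codon peak was 1.55 in cKO and 2.01 in cHet. Nsd1 had peaks of 2.78 in cKO and 3.82 in cHet and rose by 0.55 (adjusted p = 0.00383), and Setd2 had 2.01 in cKO and 3.19 in cHet and rose by 0.62 (adjusted p = 0.00412). Ezh2, the Polycomb methyltransferase gene, had near-equal peaks of 2.40 in cKO and 2.37 in cHet, and its input level of 30.7, 32.6 and 33.6 FPKM in cKO overlapped the 33.9, 29.5 and 27.9 FPKM in cHet. The smallest count of higher genes on this list under the alternatives was 9, without cHet replicate 2, without cKO replicate 2 and in the fit with the replicate number as a block.

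Of 34 tested genes of cartilage and connective tissue matrix, 17 had a start codon peak, of which 13 were lower in cKO input and none higher, beside 17.5% and 18.7% of all tested genes, with a median of -0.90. Hapln1, the link protein that ties aggrecan to hyaluronan, was at 5.39, 5.41 and 5.18 FPKM in cKO and 17.4, 15.0 and 16.5 FPKM in cHet. It fell by 1.45 on the log2 scale (SE 0.0673, adjusted p = 3.10e-04), with a start codon peak of 1.31 in cKO and 2.10 in cHet, beside an exonic cKO peak of 1.62 at the same place. Col9a1, a cartilage collagen gene, fell by 0.67 (adjusted p = 0.00235), and its peaks of 1.36 in cKO and 1.32 in cHet were nearly equal. Ogn, a small leucine-rich proteoglycan gene, was at 20.3, 12.4 and 15.5 FPKM in cKO and 47.1, 49.5 and 41.4 FPKM in cHet, and fell by 1.48 (adjusted p = 0.00173) with peaks of 1.62 in cKO and 1.66 in cHet. Col1a2, whose first bases are printed above, was at 31.3, 26.0 and 25.6 FPKM in cKO and 47.7, 60.1 and 60.4 FPKM in cHet. It fell by 0.99 (adjusted p = 0.00202), with a start codon peak that was the stronger in cKO, 2.13 against 1.55 in cHet, while its stop codon peak was 2.19 in cKO and 3.24 in cHet. Postn, a matricellular protein gene, fell by 1.06 (adjusted p = 0.00317), with peaks of 1.43 in cKO and 1.35 in cHet. Of 5 cartilage markers, all of which stand on this list too, 4 were lower, with a sum of 93.6 to 106.6 FPKM in cKO and 147.8 to 161.8 FPKM in cHet. Of 7 muscle markers, 4 were lower, and their part in these calls was not tested. Over the alternatives, 11 to 13 of the matrix genes were called lower.

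**Figure D5:**
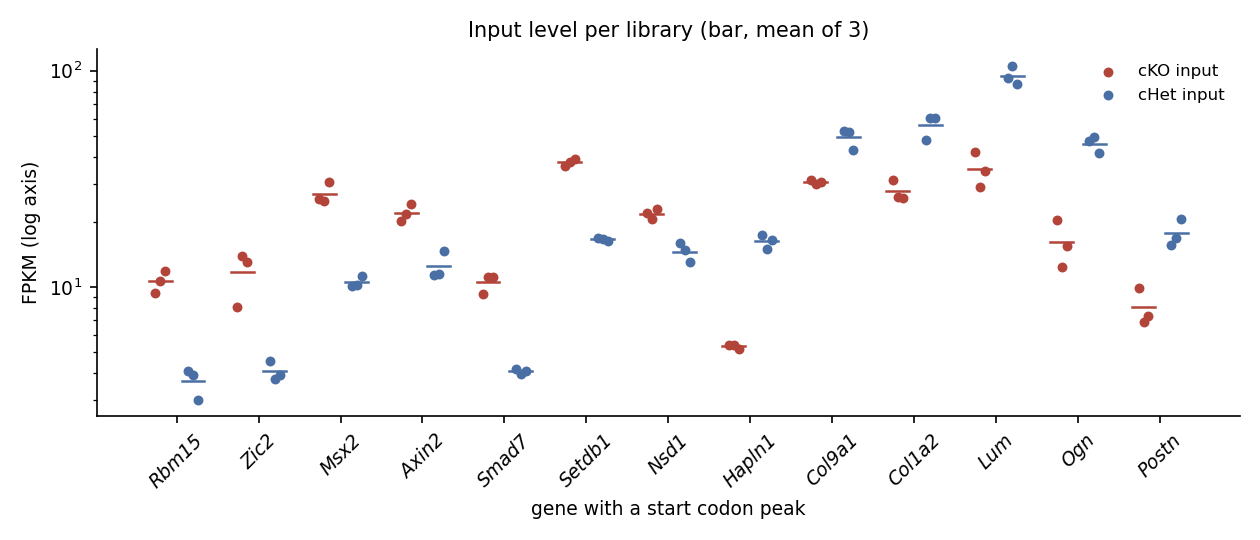
FPKM in each input library (log axis) for 13 genes with a start codon peak, with cKO (red) left of cHet (blue) and a bar at the mean of 3 libraries. The first 7 genes, Rbm15 to Nsd1, lie higher in cKO and the last 6, Hapln1 to Postn, lie lower. All 13 were called, and no gene shown has overlapping libraries, as held for 51.2% of all tested genes.

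Of 36 tested translation initiation genes, 11 had a start codon peak, of which 5 were lower in input and none higher (median -0.25). The count of lower genes was 3 without cHet replicate 1 or 2, without cKO replicate 2 or 3, with TPM and with the replicate block, and 7 without cHet replicate 3. Eif3k, an eIF3 subunit gene, fell by 0.54 (adjusted p = 0.00507) with a cKO peak of 1.15. Under quantile normalization Eif4a1 moved to 0.0318 and Eif4b to 0.17 on the log2 scale, against -0.27 and -0.07 here, and the list's count became 1 higher and 4 lower. Of 11 Hedgehog genes 3 had a start codon peak and Hhip was lower, of 14 FGF genes 4 had one with 2 higher and 1 lower, and of 12 KLF genes 2 had one and neither passed.

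Among start codon genes, on a list or not, the largest rises were Inka1 (1.62), Thoc2l (1.58), Bcl9l (1.55), Lmtk3 (1.49), Med18 (1.39) and Spen (1.35). Bcl9l was already counted in the Wnt list. Inka1, which encodes an inhibitor of the kinase PAK4, was at 67.7, 62.8 and 59.3 FPKM in cKO and 19.1, 20.6 and 20.1 FPKM in cHet. Its cKO start codon peak of 1.52 met a stop codon peak of 3.49 in the cHet list. Spen, a transcriptional corepressor gene, likewise had a cKO start codon peak of 2.11 where the cHet list had an exonic peak of 3.95. Thoc2l is a close relative of Thoc2, so its reads may be shared and its level is uncertain. The largest falls were Papss2 (-1.84), Cytl1 (-1.81), Rcn3 (-1.63), Kera (-1.62) and Epyc (-1.55), of which Epyc was already counted in the matrix list. Papss2, the enzyme that makes the sulfate donor for proteoglycans, was at 6.25, 5.99 and 5.18 FPKM in cKO and 24.8, 22.4 and 22.7 FPKM in cHet. Its start codon peak was 1.61 in cKO and 1.31 in cHet. Rcn3, a calcium-binding protein of the secretory pathway, was at 31.8, 26.5 and 24.2 FPKM in cKO and 78.7, 85.5 and 95.6 FPKM in cHet, and its peaks of 1.68 in cKO and 1.65 in cHet hardly differed.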

How the data were processed

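The submitters' processing notes name fastp, HISAT2 and mm10; the counter, annotation, strand setting, peak caller and combining of replicates were not given in the sources used here. Per the file headers, the deposited expression table holds FPKM values of 31723 genes for 6 input libraries. A peak list per genotype was deposited with a log2 enrichment of IP over input and a p-value with its adjusted value per peak, per the file headers. Values of the 6 IP libraries per gene were not used here. List starts were read as 0-based and 1 was added to each, since in the cKO list 6859 starts lay 1 below their gene's start and 0 lay at it, while 4276 ends lay at the gene's end (6070, 0 and 3786 in the cHet list); positions are on mm10.

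Genes averaging 1 FPKM or more over both genotypes' input were tested with limma 3.58.1 (R 4.3.3; lmFit, eBayes with trend) on log2(FPKM + 1), two-sided, with Benjamini-Hochberg adjustment over all 13575 genes and calls at 0.05. Log2 changes are on that scale, which understates low genes; the fit was tested on simulated data. SDs and SEs cover 3 libraries a genotype. Peaks of the lists were paired with Python 3.11.15 (pandas 2.3.3, numpy 2.4.6) by an overlap of at least 1 base on the same strand, best overlap first. Gene names come from the deposited table. RefSeq starts (GRCm38.p6) were matched by symbol for 3626 of 4565 cKO and 2645 of 3373 cHet genes.

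Genes were named by rule: Mettl14, the 8 strongest start codon peaks per list, the 5 largest differences each way, the 5 strongest peaks without a counterpart per list, the 10 largest called rises and falls, and called members of 11 lists (289 genes). The members and lists were chosen with earlier results of these data known. Deviations of same-numbered cKO and cHet libraries correlated at -0.084, 0.0399 and -0.196, so the numbers were not taken to pair the samples. Alternatives were the pseudocount, the filter, TPM, quantile normalization, the prior, the replicate block, each library left out, stricter peaks and other overlaps.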

Additional observations from a re-analysis of the deposited data

How the results depend on the processing

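With TPM, start codon genes called higher numbered 1539 and lower 458, with a median log2 change of 0.14. With the replicate number as a block, calls over all genes dropped to 2889, and start codon genes to 651 higher and 449 lower; the numbers were not shown to pair the samples. Leaving out 1 library at a time gave 2758 to 5109 calls over all genes, 627 to 1024 start codon genes higher and 443 to 854 lower, with a median of -0.00 to 0.02. Restricted to genes with a start codon peak in both lists, 489 were higher and 449 lower, and to those of the cHet list 626 and 548, as fewer genes enter. Over genes with at least 1 FPKM the median enrichment was 1.66 in cKO and 1.88 in cHet. When paired peaks had to share at least 50% of each, the median difference was 0.0507. The changes of Eif4a1 and Eif4b turned to 0.0318 and 0.17 under quantile normalization; the cause was not tested. Of 158 named changes and 14 alternatives, 1995 combinations kept their side of the threshold, 136 lost a call, 41 gained one and 2 were the turns just named. A further 43 changes of sign, counted among the 1995, were in genes that did not pass in either fit. Overlap counts stayed within 1.5 times of the main ones under stricter peaks and other overlap rules. With 3 libraries a genotype and 1 list each, small differences cannot be resolved, and depth is unknown.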
